A study of Homo sapiens with 20 samples.

Results

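The regions described here were all peaks of accessible chromatin that 7 ATAC-seq peak lists of SW872 cells placed on chromosome 5. They numbered 133736 of 1407450 peaks (9.50%), and 82339 of them were weak (summit −log10 p under 5) and 51397 strong (5 or more). The chromosome was chosen by its weak-peak counts, after earlier results of these data had been seen. The counts along it are therefore descriptions without a test, and everything counted from the same lists shares the same reads.

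SW872 is an established human liposarcoma line, and each list came from cells stably transduced with 1 pBabeNeo retroviral construct and kept as a G418-selected pool, not as a clone. The constructs were the empty vector (EV), TAZ4SA and YAP5SA (forms of the Hippo effectors TAZ and YAP with serines replaced by alanine, which makes them hard to switch off), the full-length fusion partners CAMTA1 and TFE3, and the epithelioid hemangioendothelioma fusions TAZ-CAMTA1 and YAP-TFE3. The sample titles name YAP5SA as the YAP part of the YAP-TFE3 construct. All groups share the parental line, the vector backbone and the selection, TFE3 had 2 libraries and each other vector 3, and the third EV library is titled a redo. Each vector had a single deposited list, so neither the libraries of a vector nor the error between them could be separated, and no test between vectors was possible.

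ATAC-seq cuts chromatin with the transposase Tn5, which inserts adapters where DNA is not wrapped in nucleosomes, and a peak is a place where more fragments pile up than the caller expects. Cells of sarcoma lines often carry gains, losses and rearranged stretches of chromosomes. A stretch held in more copies supplies more fragments at the same accessibility, so where no control library is used more of its marginal sites can pass the caller. Gene-rich stretches also hold more open sites than gene-poor ones, and the strong peaks of a stretch were used as a rough yardstick for that. Strong peaks are called from the same fragments and can move with copy number too. Adjusting for them can therefore also take away part of a copy-number step.

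Depth is known only through the lists. Over all chromosomes they held 152702 to 236893 peaks, and the lowest summit value of each list lay between 3.05 and 3.38 on the −log10 p scale. On chromosome 5, EV had 18953 peaks (11.1% of its list), TAZ4SA 17788 (11.6%), YAP5SA 23367 (10.1%), CAMTA1 19933 (8.91%), TFE3 12701 (8.12%), TAZ-CAMTA1 20803 (8.78%) and YAP-TFE3 20191 (8.56%). Chromosome 5 thus took a larger share of the EV, TAZ4SA and YAP5SA lists than of the other 4, whether the list was short (TAZ4SA) or long (YAP5SA). Near the boundary between weak and strong, 244 to 510 chromosome 5 peaks per list lay within 0.1 below 5 and 269 to 449 within 0.1 above it.

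Chromosome 5 was rich in weak peaks against the other autosomes. Bins of 1 Mb were used, each peak counted at its midpoint, and 178 of the 2674 autosomal bins with any peak lay on chromosome 5. Weak peaks per bin, divided by the mean autosomal bin of the same list, were 1.94 in EV, 2.08 in TAZ4SA, 1.77 in YAP5SA, 1.51 in CAMTA1, 1.33 in TFE3, 1.49 in TAZ-CAMTA1 and 1.43 in YAP-TFE3. This ranked chromosome 5 second of 22 autosomes in every list except TFE3, where it was sixth. Chromosome 20 was denser in the mean over lists, at 2.19 against 1.65.

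Strong peaks showed a smaller excess. Their relative density on chromosome 5 was 1.38 in EV, 1.45 in TAZ4SA, 1.29 in YAP5SA, 1.21 in CAMTA1, 1.15 in TFE3, 1.18 in TAZ-CAMTA1 and 1.19 in YAP-TFE3, with ranks from 3 to 8. The weak excess divided by the strong excess, in the means over lists, was 1.31, second only to chromosome 13 at 1.57, and it was 1.19 on chromosomes 7 and 20 and 1.09 on chromosome 11. Weak peaks made up 57.2% (Wilson 95% interval 56.5 to 57.9) to 66.1% (65.5 to 66.8) of the chromosome 5 peaks of a list, above the 52.2% to 57.1% of the remaining autosomes in every list. These intervals cover counting error only.

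**Figure D1:**
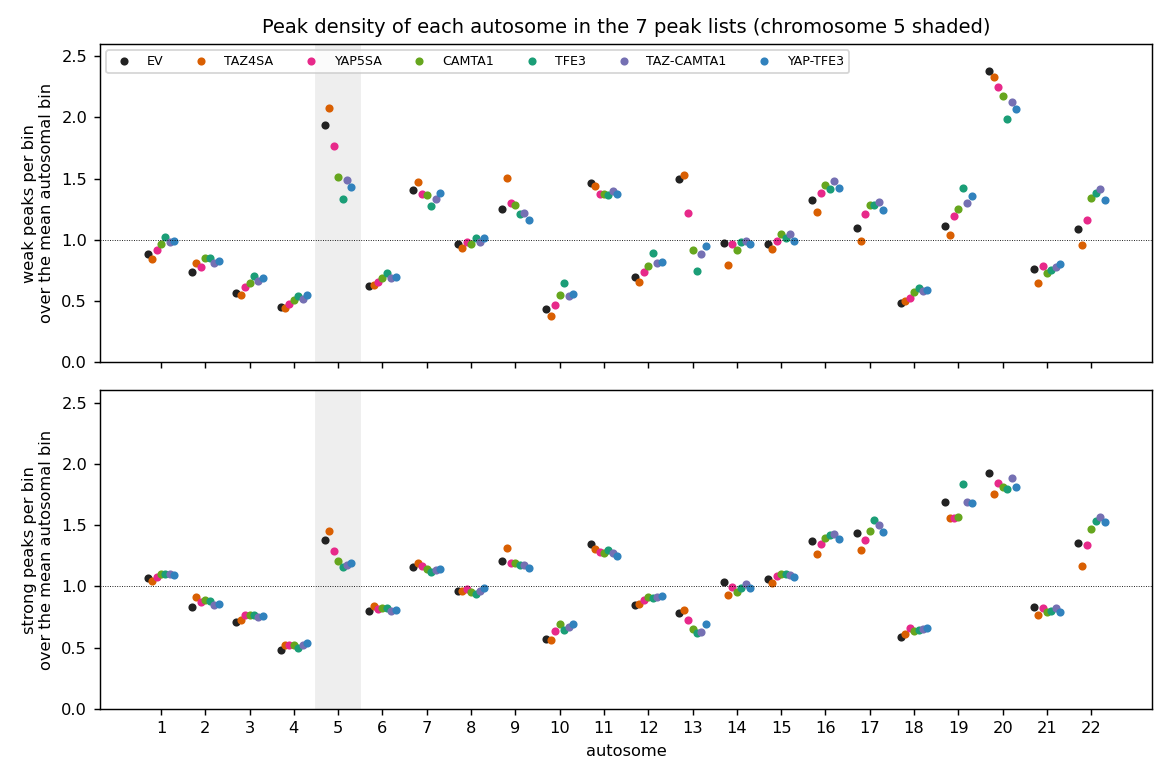
Weak (top) and strong (bottom) peaks per 1-Mb bin of each autosome, divided by the mean autosomal bin of the same list, with 1 point per list and chromosome 5 shaded. For weak peaks chromosome 5 ran from 1.33 (TFE3) to 2.08 (TAZ4SA), a wider spread over lists than chromosome 7 (1.28 to 1.47) or chromosome 20 (1.98 to 2.38), and chromosome 13 spread from 0.74 to 1.53.

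The spread over lists was also large on chromosome 5. As a share of autosomal weak peaks it held 12.9% (12.7 to 13.1) in EV, 13.8% (13.6 to 14.1) in TAZ4SA and 11.8% (11.6 to 12.0) in YAP5SA, against 10.1% (9.91 to 10.3) in CAMTA1, 8.88% (8.69 to 9.08) in TFE3, 9.92% (9.76 to 10.1) in TAZ-CAMTA1 and 9.55% (9.38 to 9.71) in YAP-TFE3. The first 3 intervals do not meet the other 4, but they do not meet each other either. All cover counting error only. When equal numbers of the highest-ranking peaks were taken from every list, the relative densities were 1.90, 2.08, 1.66, 1.44, 1.32, 1.42 and 1.39 in the same order, so the order of the 7 lists was kept at equal length. Chromosome 13 showed the same 3 lists on top, at 1.49 in EV, 1.53 in TAZ4SA and 1.22 in YAP5SA against 0.74 to 0.95 in the others. So did chromosome 20, less widely, at 2.38, 2.33 and 2.25 against 1.98 to 2.18. Other autosomes had the reverse order, such as chromosome 10 at 0.44, 0.38 and 0.47 against 0.55 to 0.65. EV, TAZ4SA and YAP5SA had 3 libraries each, as had every other vector except TFE3 with 2. Whether the quality of the libraries or the copy number of the pools moved with this was not tested.

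Along the chromosome the weak peaks rose and fell in stretches. Of its bins, 104 of 178 (58.4%) were at least 1.5 times above the median autosomal bin in the mean over lists, where 33.5% of all autosomal bins were, and 44 (24.7%) were at least 1.5 times below it, where 36.4% of all were. The 5 densest bins with a peak in every list were 1 to 2 Mb, 0 to 1 Mb, 156 to 157 Mb, 165 to 166 Mb and 10 to 11 Mb, at 12.2, 9.45, 9.34, 8.42 and 8.31 times the median bin. The bin at 1 to 2 Mb held 459 weak peaks in EV, 332 in TAZ4SA, 432 in YAP5SA, 389 in CAMTA1, 251 in TFE3, 396 in TAZ-CAMTA1 and 335 in YAP-TFE3. The 5 sparsest of the bins with a peak in every list (105 to 106, 22 to 23, 103 to 104, 84 to 85 and 100 to 101 Mb) held at most 7 weak peaks in any list. The 3 bins without any peak were 47 to 48, 48 to 49 and 104 to 105 Mb.

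Least-squares segmentation of the log2 weak count relative to the median autosomal bin, averaged over lists, gave 8 steps at 18, 31, 44, 52, 82, 107, 116 and 121 Mb. The largest was a fall by 3.96 on the log2 scale at 18 Mb, where the 13 Mb beyond the step held 51 to 135 weak peaks per list after 1396 to 2998 in the 18 Mb before it. Every one of the 8 steps had the same direction in all 7 lists. In EV the change at 18 Mb was -4.46, in TAZ4SA -3.62, in YAP5SA -3.94, in CAMTA1 -4.11, in TFE3 -3.64, in TAZ-CAMTA1 -3.90 and in YAP-TFE3 -4.02.

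Steps of this kind were not particular to chromosome 5. The same segmentation gave 101 steps over the 22 autosomes, 10 of them on chromosome 2 and 8 each on chromosomes 1, 7 and 11, and the largest step of chromosome 5 was exceeded on 8 other autosomes, up to 5.07 on chromosome 13. Strong peaks fell at the same place, from 812 to 1456 per list before 18 Mb to 34 to 82 after it. The variation between neighbouring bins was also wide, with an SD of 0.82 per bin on the log2 scale over all autosomes.

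Dividing the weak count of each bin by the number expected from its strong peaks, fitted over all autosomal bins of the list, brought that SD down to 0.29 and left another set of steps. This adjusted profile had 5 steps on chromosome 5, at 16, 128, 138, 155 and 167 Mb. The 6 segments stood at a mean log2 of 0.94 (0 to 16 Mb), 0.32 (16 to 128 Mb), 0.94 (128 to 138 Mb), 0.01 (138 to 155 Mb), 1.15 (155 to 167 Mb) and 0.24 (167 to 181 Mb). Raised and lower stretches thus alternated, and 138 to 155 Mb was the stretch closest to the number expected from strong peaks, at a mean of 1.01 times that number.

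At these settings no other autosome had as many adjusted steps. There were 25 over the 22 autosomes, with 4 on chromosome 13, 2 each on chromosomes 1, 4, 7, 11 and 19, and none on 9 autosomes. Chromosome 13 had 4 steps as well with a cut of 4 between weak and strong peaks, where chromosome 5 also had 4, with a cut of 6, where chromosome 5 had 3, and with 2 times the penalty, where it had 1. Per 100 bins chromosome 5 had 2.81, below chromosome 13 at 4.26 and chromosome 19 at 3.45. Its largest adjusted step, the rise of 1.15 at 155 Mb, came second to the 1.45 of chromosome 13. The level beyond that step weights sparse and dense bins alike. The bin at 161 to 162 Mb, with 3 to 11 weak peaks per list, stood at 1.75. Of the dense bins, that at 156 to 157 Mb (154 to 420 weak peaks) stood at 1.27 and that at 158 to 159 Mb (69 to 143) at 0.20.

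**Figure D2:**
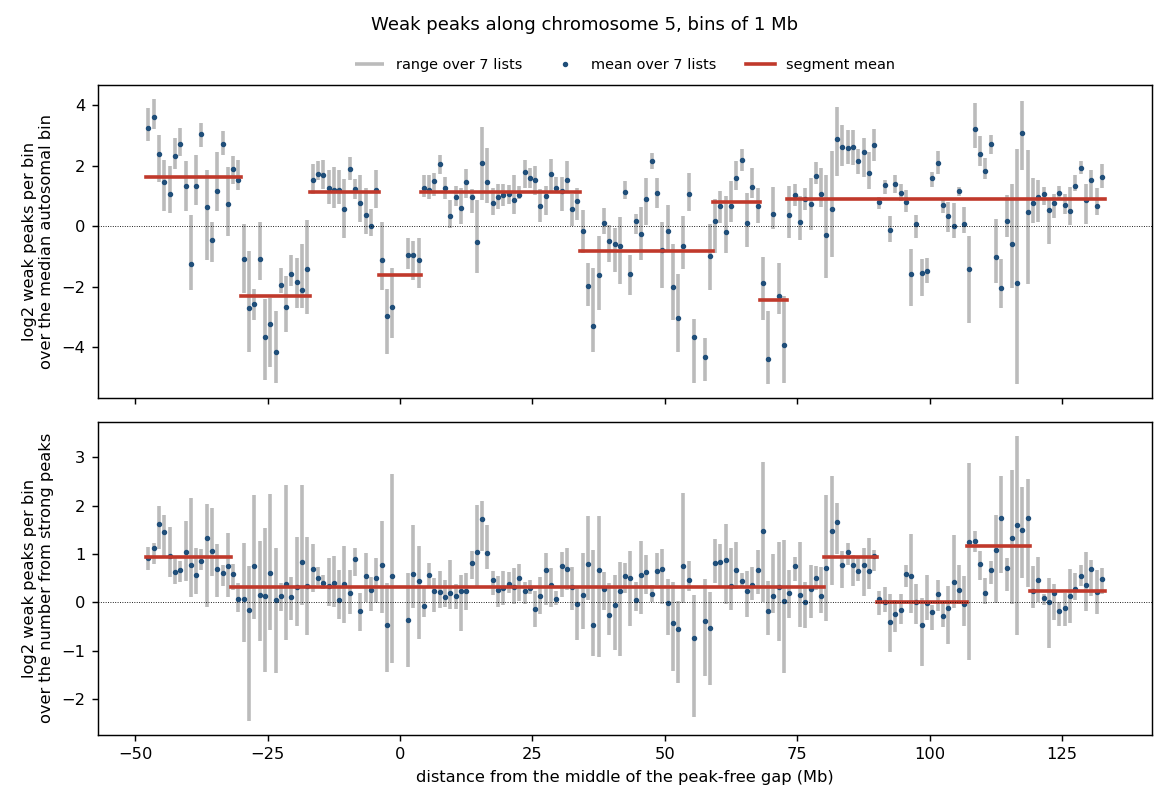
Weak peaks per 1-Mb bin of chromosome 5 against the distance from the middle of the peak-free gap, on a log2 scale relative to the median autosomal bin (top) or to the number expected from the strong peaks of the bin (bottom). Points are means over the 7 lists, grey bars the range over lists and red lines the segment means; the deep dips of the top panel are largely absent below, and 3 raised stretches at 0.94, 0.94 and 1.15 remain.

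Each list held each adjusted step with the same sign, but not with the same size. At 16 Mb the change was close in all lists, from -0.85 in EV to -0.47 in YAP5SA. At 138 Mb it was -1.34 in EV, -1.44 in TAZ4SA and -1.28 in YAP5SA, against -0.76 in CAMTA1, -0.30 in TFE3, -0.64 in TAZ-CAMTA1 and -0.79 in YAP-TFE3. The same split of the lists held at 155 Mb, where the rise was 1.53, 1.59 and 1.65 in EV, TAZ4SA and YAP5SA and 0.87, 0.68, 0.66 and 1.05 in CAMTA1, TFE3, TAZ-CAMTA1 and YAP-TFE3. At 167 Mb the first 3 fell by 1.29, 1.51 and 1.22, and the other 4 by 0.65, 0.50, 0.31 and 0.96. At these 3 steps the EV, TAZ4SA and YAP5SA values did not overlap those of the other 4 lists. The split did not hold at 16 Mb or at 128 Mb. At 128 Mb the rise was 0.99 in EV, 0.72 in TAZ4SA and 0.61 in YAP5SA. It was 0.57 in CAMTA1, 0.31 in TFE3, 0.43 in TAZ-CAMTA1 and 0.72 in YAP-TFE3, so YAP-TFE3 lay above YAP5SA.

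When a list was left out of the segmentation and its own change was then read at the step found in the other 6, the steps at 128, 138, 155 and 167 Mb were found within 1 bin in all 7 refits and the step at 16 Mb in 6. In that reading the change at 155 Mb was 1.53 in EV and 0.66 in TAZ-CAMTA1, the lists near either end of the range. The number of steps did depend on the settings. It was 4 with a cut of 4 between weak and strong peaks, 3 with a cut of 6, 10 with 0.5 times the penalty and 1 (at 16 Mb) with 2 times the penalty. Over the 8 alternatives of this kind, a step within 2 Mb was found in 7 for 16 and 155 Mb and in 6 for 128, 138 and 167 Mb.

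**Figure D3:**
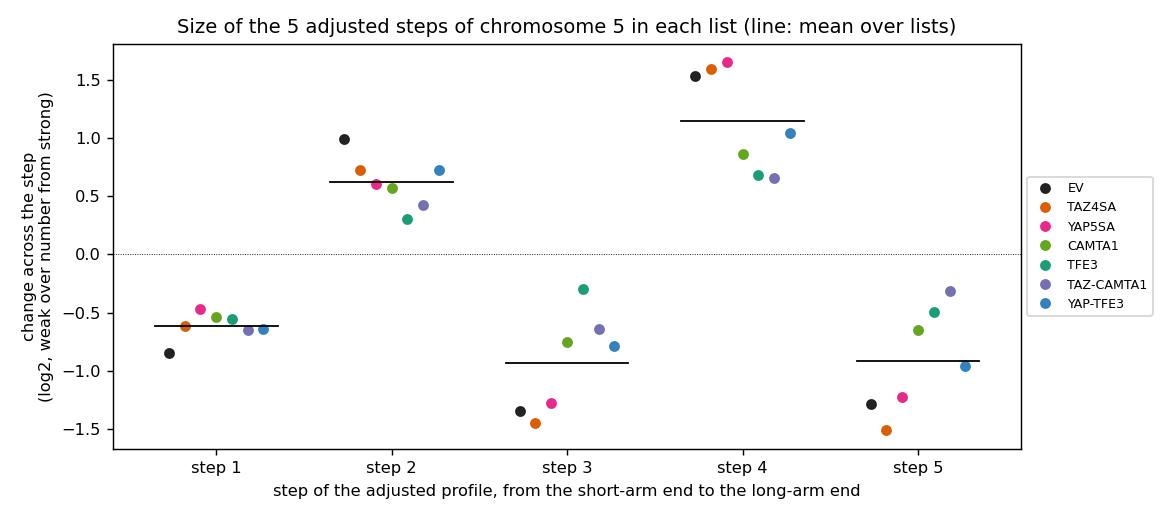
Change of the adjusted weak-peak density across each of the 5 steps of chromosome 5 in each list, in log2 units, from the short-arm end (step 1, 16 Mb) to the long-arm end (step 5, 167 Mb), with the mean over lists as a line. Steps 3 to 5 are larger in EV, TAZ4SA and YAP5SA than in any other list, while step 1 lies between -0.85 and -0.47 in all 7.

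Weak counts without the adjustment were then split at 100 kb in a window around each adjusted step, in each list alone. This finds the sharpest change of the counts, which need not be the adjusted step. Around the first step, at 16 Mb, it returned the fall of the unadjusted profile, at 17.6 Mb in 6 lists and at 17.8 Mb in CAMTA1, so the adjusted step itself was not placed more finely. Around the second the counts changed between 129.9 and 130.4 Mb. Around the third they fell at 138.0 or 138.1 Mb in 6 lists, whereas in TFE3 the best split of the window lay at 133.6 Mb. Around the fourth they rose at 156.1 or 156.2 Mb in all 7. Around the fifth, a fall in the adjusted profile, the counts fell in EV (166.2 Mb) and TAZ4SA (166.3 Mb), whereas in the other 5 lists the sharpest change was a rise at 165.0 or 165.5 Mb, so this step was not placed more finely either.

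Other measures were then compared between the 6 adjusted segments. Strong peaks per bin relative to the mean autosomal bin averaged 2.05 over the lists at 0 to 16 Mb, 0.96 at 16 to 128 Mb, 2.17 at 128 to 138 Mb, 1.40 at 138 to 155 Mb, 1.52 at 155 to 167 Mb and 1.48 at 167 to 181 Mb. The segment at 155 to 167 Mb therefore had, in the mean over lists, nearly the strong density of its neighbours on both sides, though it ran from 1.13 to 2.29 between lists. Its weak density averaged 2.57 against their 1.25 and 1.62. The ratio of weak to strong peaks ran from 1.76 to 2.36 over the lists at 155 to 167 Mb, from 0.96 to 1.26 at 138 to 155 Mb and from 1.07 to 1.56 at 167 to 181 Mb. The median width of a weak peak was much alike everywhere, between 99 and 124.5 bp over segments and lists.

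Sites with a peak in all 7 lists gave a measure of signal that is not a count of peaks. Weak peaks enter it as strong ones do, so it is not separate from the counts that set the segments. There were 58784 on the autosomes and 5104 on chromosome 5. Their area under the curve per base, on a log2 scale relative to the median autosomal site of the same list, had a median of -0.18 on chromosome 5 in the mean over lists, the second lowest of the autosomes after chromosome 13 at -0.29. It was lowest in the raised segments, at -0.57 for 0 to 16 Mb (776 sites), -0.29 for 128 to 138 Mb (525 sites) and -0.39 for 155 to 167 Mb (382 sites). In the other segments it was -0.09 for 16 to 128 Mb (2456 sites), 0.02 for 138 to 155 Mb (519 sites) and -0.03 for 167 to 181 Mb (446 sites). No list overlapped between the 2 kinds of segment, since the raised ones ran from -0.67 to -0.21 and the others from -0.16 to 0.10. At a finer scale the 2 kinds did overlap. Within 16 to 128 Mb, the sparse stretches at 18 to 31, 44 to 52 and 116 to 121 Mb averaged -0.38 (35 sites), -0.39 (26 sites) and -0.28 (28 sites). The dense stretch at 158.8 to 160 Mb, inside a raised segment, averaged 0.03 (103 sites). Which sites appear in all 7 lists also depends on how many marginal peaks were called, and the part of that in this difference was not tested.

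Within each segment the shared site with the largest lowest area was named. At the short-arm end it was chr5:9953-12455 (GRCh37) with areas from 28385 in TFE3 to 52467 in YAP-TFE3 and summit values from 27.1 to 43.1. The other named sites had lower summit values, from 11.8 to 26.6. Whether the place of this site at the very end of the chromosome bears on its signal was not tested. Between 16 and 128 Mb it was chr5:34178516-34195077, a site of 16562 bp with an area of 72264 in EV, 71482 in TAZ4SA, 69171 in YAP5SA, 63719 in CAMTA1, 33484 in TFE3, 66649 in TAZ-CAMTA1 and 62046 in YAP-TFE3. Between 128 and 138 Mb it was chr5:131591992-131603118, with 32492 in EV, 23940 in TAZ4SA, 41630 in YAP5SA, 53071 in CAMTA1, 29170 in TFE3, 53949 in TAZ-CAMTA1 and 55217 in YAP-TFE3. At this site TAZ4SA, TFE3 and EV had the smallest areas. The named sites of the last 3 segments were chr5:149695533-149702496, chr5:162885877-162890145 and chr5:176921143-176925977, with areas from 13056 to 33133.

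Short blocks of dense weak peaks were marked next. A block was a run of 200-kb bins at 3 or more times the mean autosomal bin (median over lists), at least 400 kb long, with gaps of 1 bin bridged, a rule chosen after the data had been seen. On chromosome 5, 110 of 855 such bins (12.9%) were that dense, against 5.25% of the 12133 autosomal bins, and they formed 18 blocks of 20.4 Mb in all. Chromosome 7 also had 18 blocks, chromosomes 11 and 20 had 16 each, and 4 autosomes had none. All autosomes together had 119 blocks.

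Of the 18 blocks, 11 lay in the 3 segments raised in the adjusted profile and a further one just past the first of them. Those segments held 16, 10 and 12 of the 178 bins of 1 Mb. Blocks and segments both come from the weak peaks of the same lists, so their overlap follows in part from the rules. These 12 blocks lay at 0 to 2.4, 5 to 5.8, 6.2 to 7, 10 to 11, 14 to 15 and 16.4 to 17.4 Mb on the short arm, at 130.2 to 133.6, 134.6 to 135.8 and 136.6 to 138 Mb, and at 156.2 to 158, 158.8 to 160 and 165.4 to 166.2 Mb. The remaining 6 were single blocks at 38.4, 55.2, 63.4, 112.2, 149.4 and 178.6 Mb, none longer than 1000 kb. The blocks covered 11.9% of the binned length of the chromosome and held from 36.3% (35.2 to 37.4) of its weak peaks in TFE3 to 43.0% (42.2 to 43.9) in EV, and from 29.4% to 36.4% of its strong peaks. The blocks of all autosomes covered 4.39% of their binned length and held 17.5% of the autosomal weak peaks in TFE3 to 23.8% in EV. Since blocks were chosen by weak-peak density, a high share inside them and a smaller excess outside them follow from the rule.

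Outside the blocks the same 3 lists stood apart. Weak peaks per Mb outside blocks were 47.4 in EV against 31.9 on all autosomes outside their blocks, 45.7 against 27.5 in TAZ4SA and 60.9 against 43.3 in YAP5SA. They were 48.1 against 40.9 in CAMTA1, 31.2 against 29.5 in TFE3, 53.1 against 45.3 in TAZ-CAMTA1 and 48.6 against 42.9 in YAP-TFE3. The ratio was thus 1.41 to 1.66 in EV, TAZ4SA and YAP5SA and 1.06 to 1.18 in the other 4 lists.

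**Figure D4:**
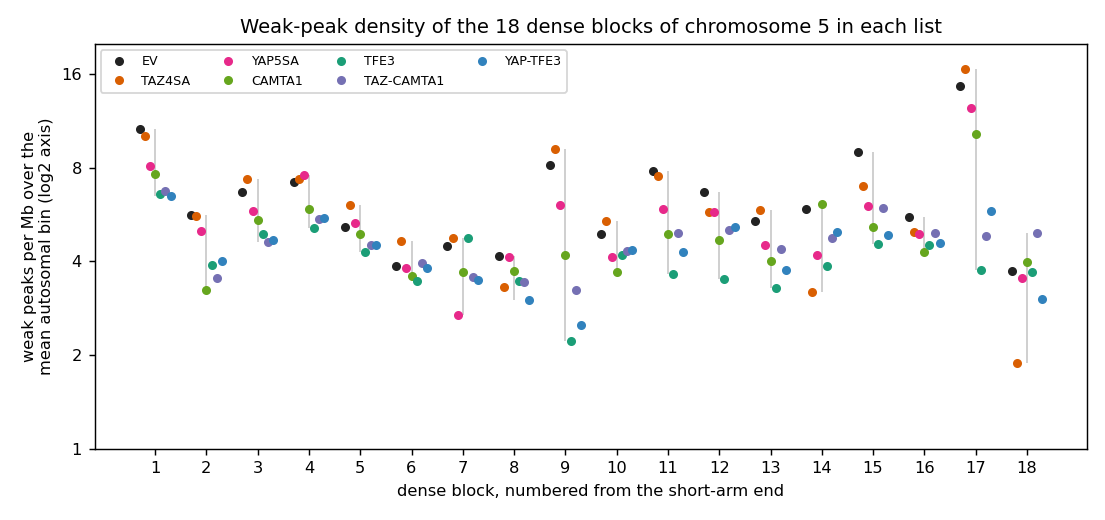
Weak peaks per Mb of each of the 18 dense blocks of chromosome 5 over the mean autosomal bin of the list, on a log2 axis, with 1 point per list and a line for the range. EV and TAZ4SA each have the highest value in 7 blocks and TFE3 the lowest in 9; the widest ranges are those of blocks 9 (2.23 to 9.20) and 17 (3.75 to 16.7).

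Some blocks ended at one place in every list. Of 35 block edges read at 10 kb in each list alone, 9 agreed within 100 kb over the lists, and the median spread was 270 kb. In 3 of the 245 readings the change ran the other way (the end of block 2 in TAZ4SA and CAMTA1 and the start of block 13 in TAZ4SA), and without those 2 edges 9 of 33 agreed and the median spread was 260 kb. The block at 156.2 Mb began between 156.15 and 156.18 Mb, where weak peaks rose from 8.51 to 517 per Mb in EV and from 4.17 to 152 per Mb in TFE3, and by 21.1 to 60.7 times over the lists. The block before 138 Mb ended between 138.00 and 138.09 Mb, with a fall by 3.10 to 5.85 times. There the bin at 137 to 138 Mb held 202 weak peaks in EV, 195 in TAZ4SA, 229 in YAP5SA, 201 in CAMTA1, 114 in TFE3, 239 in TAZ-CAMTA1 and 192 in YAP-TFE3. The next bin held 36, 32, 65, 65, 47, 68 and 59, so all lists fell there.

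The 10 Mb beyond that edge lay near the autosomal mean. At 138 to 148 Mb the weak density was 0.96 to 1.18 times the mean autosomal bin and the strong density 1.12 to 1.28 times. At 131 to 138 Mb the weak density was 3.02 to 5.32 times and the strong density 2.44 to 3.06 times. The weak value was highest in EV (5.32), TAZ4SA (5.05) and YAP5SA (4.36) and lowest in TFE3 (3.02), whereas beyond the edge those 3 lists were the lowest of the 7.

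**Figure D5:**
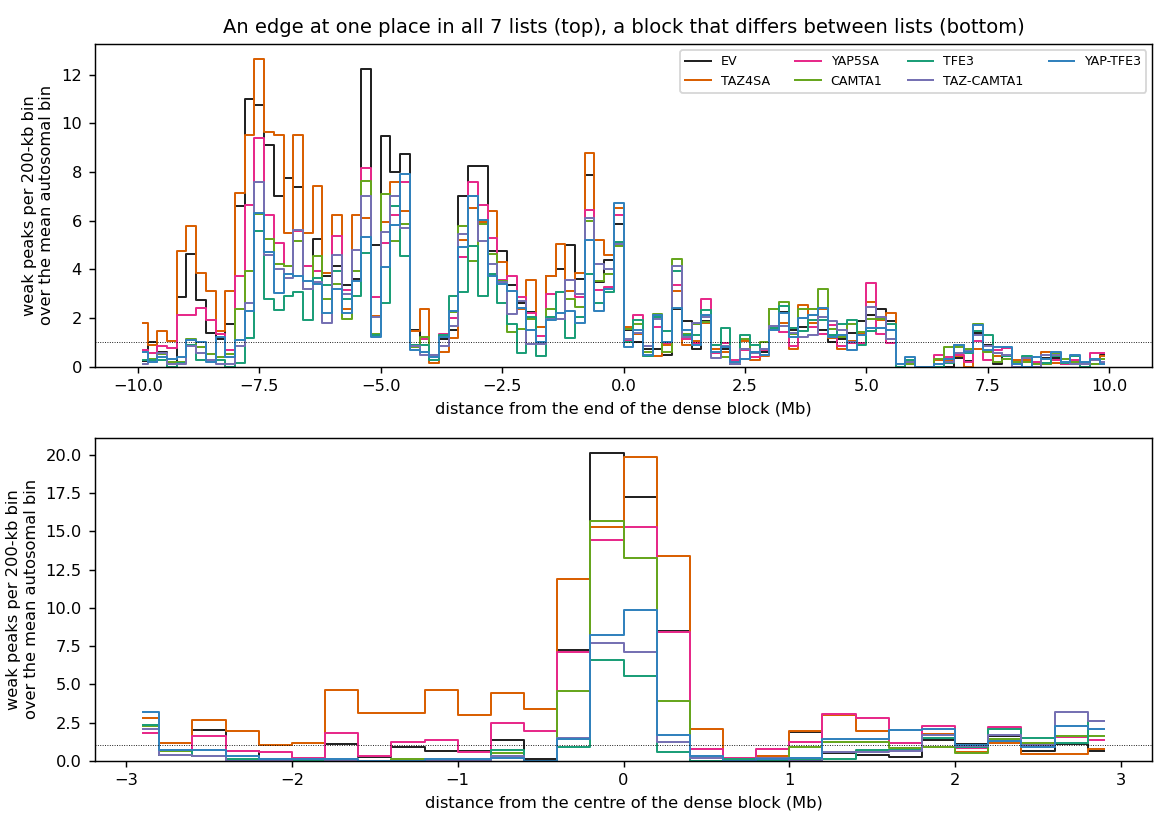
Weak peaks per 200-kb bin over the mean autosomal bin of the same list, against the distance from the end of the dense block that stops at 138 Mb (top) and from the centre of the block at 165.4 to 166.2 Mb (bottom), with 1 line per list. All 7 lines drop at the edge in the top panel, while in the bottom panel the block averages 16.7 in TAZ4SA and 3.75 in TFE3. Before the block, the stretch at 164 to 165 Mb held 28 to 124 weak peaks in EV, TAZ4SA and YAP5SA and 0 to 3 in the other 4 lists.

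The block at 165.4 to 166.2 Mb differed most between lists. It held 425 weak peaks in EV, 407 in TAZ4SA, 471 in YAP5SA, 363 in CAMTA1, 93 in TFE3, 187 in TAZ-CAMTA1 and 211 in YAP-TFE3. Relative to the mean autosomal bin these were 14.6, 16.7, 12.5, 10.3, 3.75, 4.83 and 5.83 times, so the block was dense in all lists and the highest value was 4.44 times the lowest. In its weak peaks CAMTA1 here stood closer to EV, TAZ4SA and YAP5SA than to the fusions.

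Strong peaks in that block differed more than weak ones. They numbered 186 in EV, 321 in TAZ4SA, 223 in YAP5SA, 75 in CAMTA1, 24 in TFE3, 27 in TAZ-CAMTA1 and 49 in YAP-TFE3, which is 8.89, 15.9, 7.52, 2.50, 1.16, 0.89 and 1.5 times the mean autosomal bin. The ratio of weak to strong peaks accordingly ran from 1.27 in TAZ4SA to 6.93 in TAZ-CAMTA1. At the 57 shared sites of the block the log2 area per base was between -1.92 and -0.37, so these were weak sites for a shared site in every list. TAZ4SA, EV and YAP5SA had the highest areas there, in the same order as their strong densities.

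The flank of this block held the bin with the largest departure of a list. At 164 to 165 Mb there were 124 weak peaks in TAZ4SA, 55 in YAP5SA and 28 in EV, but 2 in CAMTA1, 3 in YAP-TFE3 and 0 in TFE3 and TAZ-CAMTA1. Among autosomal bins with at least 10 weak peaks in the list, this bin had the highest ratio to the median of the other lists in EV (of 1947 bins), in TAZ4SA (of 1933) and in YAP5SA (of 2140). Strong peaks there were 9 in TAZ4SA, 4 in YAP5SA, 1 in EV and 0 elsewhere. On the other side, the bin at 166 to 167 Mb includes the tail of the block, which ran to 166.2 Mb. Weak peaks in that bin numbered 89, 120 and 119 in EV, TAZ4SA and YAP5SA, 50 in CAMTA1, and 6, 17 and 23 in TFE3, TAZ-CAMTA1 and YAP-TFE3. Past the block end read in each list (165.97 to 166.22 Mb) the 3 lists did not lead. Weak peaks per Mb there were 0 in EV, 6.25 in TAZ4SA, 14.6 in YAP5SA and 5.77 in CAMTA1. They were 8.22 in TFE3, 22.5 in TAZ-CAMTA1 and 32.9 in YAP-TFE3.

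Beyond 167 Mb EV, TAZ4SA and YAP5SA no longer led, though YAP-TFE3 stayed below EV and YAP5SA. From 167 to 181 Mb the weak density relative to the mean autosomal bin was 1.56 in EV, 1.21 in TAZ4SA and 1.64 in YAP5SA, and 1.72 in CAMTA1, 1.73 in TFE3, 1.94 in TAZ-CAMTA1 and 1.55 in YAP-TFE3. TAZ4SA, the highest list before the step, was the lowest after it. For TAZ-CAMTA1 the bin with its largest ratio to the other lists fell here, at 174 to 175 Mb, with 90 weak peaks against 26 to 51 in the other lists, the highest such ratio of 2096 autosomal bins. The corresponding bins of CAMTA1 (19 weak peaks at 144 to 145 Mb), TFE3 (50 at 179 to 180 Mb) and YAP-TFE3 (17 at 116 to 117 Mb) ranked 10, 54 and 32 among the autosomal bins of their lists.

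The block at 63.4 to 64.4 Mb had nearly as wide a range. It held 297 weak peaks in EV, 281 in TAZ4SA, 286 in YAP5SA, 185 in CAMTA1, 69 in TFE3, 157 in TAZ-CAMTA1 and 113 in YAP-TFE3, or 8.17, 9.20, 6.05, 4.20, 2.23, 3.24 and 2.50 times the mean autosomal bin. Its strong peaks exceeded the mean autosomal bin by less, at 1.08 to 3.10 times it, and the ratio of weak to strong was 2.02 to 4.14. It started between 63.32 and 63.44 Mb, and in CAMTA1 and TAZ-CAMTA1 the stretch searched before that start held no weak peak at all. On that side the block thus bordered a nearly empty flank in every list.

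At 129 to 131 Mb the lists split in the same way. Weak peaks numbered 449 in EV, 443 in TAZ4SA, 412 in YAP5SA, 247 in CAMTA1, 94 in TFE3, 230 in TAZ-CAMTA1 and 213 in YAP-TFE3, or 6.18, 7.25, 4.36, 2.81, 1.52, 2.37 and 2.35 times the mean autosomal bin. Strong peaks there ranged from 0.81 to 2.26 times it and split the lists too. They stood at 1.61 in EV, 2.26 in TAZ4SA and 1.28 in YAP5SA, against 0.81 to 1.00 in the other 4. The short-arm end was more even. At 0 to 2 Mb the weak density was 11 in EV, 10.6 in TAZ4SA, 8.14 in YAP5SA, 7.89 in CAMTA1, 7.08 in TFE3, 6.83 in TAZ-CAMTA1 and 6.52 in YAP-TFE3.

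Shares of autosomal weak peaks put these differences on one scale with their counting error. At 155 to 167 Mb the share was 1.57% (1.49 to 1.65) in EV, 1.71% (1.62 to 1.80) in TAZ4SA, 1.28% (1.22 to 1.34) in YAP5SA, 0.98% (0.93 to 1.04) in CAMTA1, 0.76% (0.70 to 0.82) in TFE3, 0.91% (0.86 to 0.96) in TAZ-CAMTA1 and 0.88% (0.83 to 0.93) in YAP-TFE3. At 138 to 155 Mb, between 2 raised segments, it was 0.76%, 0.70%, 0.74%, 0.88%, 0.84%, 0.81% and 0.82%. The lists that led in the raised segments were thus the lowest in the one between them, and the interval of TAZ4SA (0.65 to 0.76) did not meet that of TFE3 (0.78 to 0.90). The largest departure of a list over the 9 segments of the unadjusted profile was that of TAZ4SA at 18 to 31 Mb. There it held 133 weak peaks, 0.16% (0.14 to 0.19) of its autosomal weak peaks against a median of 0.07% in the other 6 lists, a log2 difference of 1.26.

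Strong peaks repeated part of this pattern. Their share at 155 to 167 Mb was 0.92% in EV, 1.03% in TAZ4SA, 0.70% in YAP5SA, 0.57% in CAMTA1, 0.51% in TFE3, 0.53% in TAZ-CAMTA1 and 0.51% in YAP-TFE3. At 138 to 155 Mb it was 0.84% in EV, 0.89% in TAZ4SA, 0.90% in YAP5SA, 0.93% in CAMTA1, 0.89% in TFE3, 0.89% in TAZ-CAMTA1 and 0.90% in YAP-TFE3. At 155 to 167 Mb EV, TAZ4SA and YAP5SA thus led in strong as in weak peaks. At 138 to 155 Mb they were not set apart in strong peaks, where YAP5SA came second to CAMTA1.

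Counted bin by bin, the departures were frequent on chromosome 5. Of its 152 bins with at least 70 weak peaks summed over lists, TAZ4SA was 1.5 times or more above the median of the other lists in 73 (48.0%, against 14.7% of the 2071 autosomal bins), EV in 51 (33.6%, against 7.29%) and YAP5SA in 27 (17.8%, against 4.25%). TFE3 was as far below in 48 (31.6%, against 9.03%), TAZ-CAMTA1 in 29 (19.1%, against 5.55%), YAP-TFE3 in 19 (12.5%, against 3.81%) and CAMTA1 in 10 (6.58%, against 2.61%). Departures the other way were few. EV was below in 2 bins (1.32%, against 4.59% of all autosomal bins), TAZ4SA in 5 (3.29%, against 8.31%) and YAP5SA in 0 (against 2.85%). TFE3 was above in 0 (against 1.45%). The remaining lists were near their autosomal share. CAMTA1 was above in 2 (1.32%, against 0.966%), TAZ-CAMTA1 in 2 (1.32%, against 1.59%) and YAP-TFE3 in 4 (2.63%, against 3.24%). These bins are neighbours in the same libraries and are not independent of each other.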

How the data were processed

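ATAC-seq was carried out by the authors on 20 libraries of SW872 cells carrying 7 constructs, with replicates from separate transductions. Per the methods, reads were trimmed with NGmerge and aligned with BWA-MEM to GRCh37/hg19, and Genrich called peaks in ATAC-seq mode without PCR duplicates, blacklisted regions, the mitochondrial genome and named contigs. No control library is named. The labels' processing notes name Bowtie 0.12.2 and mm8 instead, but the chromosome names and lengths in the lists are those of human GRCh37. Peaks are said to have been called on each replicate, whereas 1 list per vector was used here and how replicates were combined is not stated. Each deposited list gives an area under the curve (signal), a summit −log10 p, a −log10 q and a score capped by the caller, with no read counts.

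The chromosome, the lists and the rules were chosen with earlier results of these data known. Peaks were assigned to 1-Mb bins by midpoint and bins without a peak in any list were dropped. Weak peaks (−log10 p under 5) were expressed as log2(count + 1) relative to the median autosomal bin, averaged over the 7 lists, and segmented by exact least squares (shortest segment 5 bins, penalty 3 times the log of the number of bins times the variance of a bin). The adjusted profile is the residual of log2(weak + 1) on log2(strong + 1) over all autosomal bins of a list. Densities were divided by the mean autosomal bin of the list. The regions named were every segment and step, the 5 bins with most and the 5 with fewest weak peaks (among bins with a peak in every list), for each list the bin furthest above the others (at least 10 weak peaks), and in each segment the site in all 7 lists whose lowest area was largest. Overlapping peaks (1 bp or more) were merged into sites. Python 3.11.15, numpy 2.4.6 and pandas 2.3.3 were used, and the segmentation was tested on simulated data. The alternatives were other cuts between weak and strong, bin sizes, penalties, shortest segments and scalings, bases in place of peaks, equal numbers of peaks and each list left out. No gene names or sequences are given because an annotation of GRCh37 was not used here.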

Additional observations from a re-analysis of the deposited data

How the results depend on the processing

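The number of steps in weak-peak density (8) was 14 with bins of 500 kb and with 0.5 times the penalty, 4 with 2 times the penalty and with a shortest segment of 10 Mb, and 5 after adjustment for strong peaks. The largest step (-3.96 on the log2 scale) was -3.62 with a cut of 4, -4.22 for bases covered, -3.67 with bins of 500 kb and -4.19 with bins of 2 Mb. After adjustment the largest step was another one, a rise of 1.15. The number of adjusted steps (5) was 3 with a cut of 6, 10 with 0.5 times and 1 with 2 times the penalty. The number of dense blocks (18) was 11 at 4 times the mean bin. The relative weak density of chromosome 5 (1.65) was 1.73 with a cut of 4, 1.60 with a cut of 6, 1.68 for bases, 2.30 over the median bin and 1.60 with equal numbers of peaks. Why these values moved was not tested. Leaving out each list in turn gave 7 to 8 steps, a largest step of -4.01 to -3.87, 5 adjusted steps each time, 17 to 21 blocks, a relative density of 1.58 to 1.70 and a departure of TAZ4SA at 18 to 31 Mb of 1.21 to 1.32. Of the other 62 departures by list and segment, 11 moved beyond their counting interval with equal numbers of peaks, 23 over the median bin, 14 with a cut of 4, 7 for bases and 0 with a cut of 6, and none of those with an interval off 0 changed sign.

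No paired analysis was possible because each vector is given as a single list in which its libraries are not kept apart, and for the same reason no library was left out. Peak lists keep neither depth nor the signal between peaks, so copy number and accessibility cannot be told apart, and differences between vectors carry no replicate error. The alternatives for the adjusted profile and for the blocks were chosen after seeing the data.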

Other observations

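Of the 18 dense blocks, the one at 63.4 to 64.4 Mb had the highest median ratio of weak to strong peaks after that at 165.4 to 166.2 Mb (3.74 and 3.88), and the one at 38.4 to 38.8 Mb the lowest (1.02). The block at 38.4 to 38.8 Mb was highest in TFE3, the list that was lowest in 9 others, and the last block, at 178.6 to 179 Mb, was highest in TAZ-CAMTA1 and lowest in TAZ4SA. The block at 149.4 to 149.8 Mb, inside the segment closest to the number expected from strong peaks, was highest in CAMTA1 and lowest in TAZ4SA, at 6.13 and 3.19 times the mean autosomal bin, and its end lay between 150.03 and 150.06 Mb in all 7 lists.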
